A study of Gallus gallus with 16 samples.

Results

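Pituitary glands of chicken embryos at embryonic day 14 (E14) were compared with glands at embryonic day 10 (E10), using the 8 arrays of these ages among the 16 of the study. Fertilised eggs were incubated until the gland was taken, and no treatment or genetic change is named in the labels. Each array measured 1 pool of glands, from 16 embryos at E10 and from 4 embryos at E14, with 4 pools per age. The sample RNA was amplified from 500 ng, labelled with Cy3 and hybridised with a Cy5-labelled reference pool made of equal amounts of all 16 samples, including those of days 12 and 17 (E12 and E17). A pool averages its embryos, so differences between single embryos are not seen, and in whole glands fewer cells of a type and less RNA per cell cannot be told apart.

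The anterior pituitary arises from Rathke's pouch and comes to hold several hormone-secreting cell types. Thyrotrophs make thyrotropin, somatotrophs make growth hormone and lactotrophs make prolactin, and the study's title names the differentiation of these cells as its subject. In mouse and human these cell types largely depend on the transcription factor POU1F1. In the chicken embryo, cells that release growth hormone become common in the later part of incubation, and glucocorticoids can bring them on early.

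The array carried 7200 spotted cDNA probes, and each row of the deposited table is 1 probe. The annotation used here gives a gene for 54 of them, all STUB1, and none for the other 7146. No hormone, transcription factor or marker of another cell type could therefore be looked up, the tissue label could not be checked against marker genes, and probes are given by row number. Whether several rows hold cDNA of the same gene is not given either. No probe sequence was given, and none is printed.

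Values are deposited log ratios of sample over reference pool, read as log2, so that 0 is the level of the pool. The arrays had been centred and scaled to a common SD of 0.261 before deposit, and the log base is an assumption, so differences are given on this scale and no fold changes are derived. Each of the 8 arrays held between 7023 and 7186 values. E14 replicate 1 stood apart from the other E14 arrays in the probes that rose, and E14 replicates 3 and 4 lacked 42 and 43 of the first 45 spots, where replicates 1 and 2 and the E10 arrays lacked 0. Results without these arrays are given below.

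Between E10 and E14, 326 probes rose and 241 fell, of 7106 that had at least 3 values at each age (limma, Benjamini-Hochberg adjusted p under 0.05). That is 7.98% of the probes tested, with 4.59% higher and 3.39% lower at E14. Before adjustment, 1381 probes (19.4%) had a limma p under 0.05. Among probes past the threshold, the median difference was 0.65 for those that rose and -0.43 for those that fell, against -0.02 over all tested. The probes that rose had the larger median standard error (0.130 against 0.099), so they needed a larger difference to pass. These medians are therefore a description. An increase of at least 1 was measured in 66 probes (0.929% of those tested), all of them past the threshold, and a decrease of that size in 2 (0.0281%). The median standard error of a difference was 0.12, and a measured difference of 0.93 or -0.88 could still miss the threshold where the arrays of an age spread widely.

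**Figure D1:**
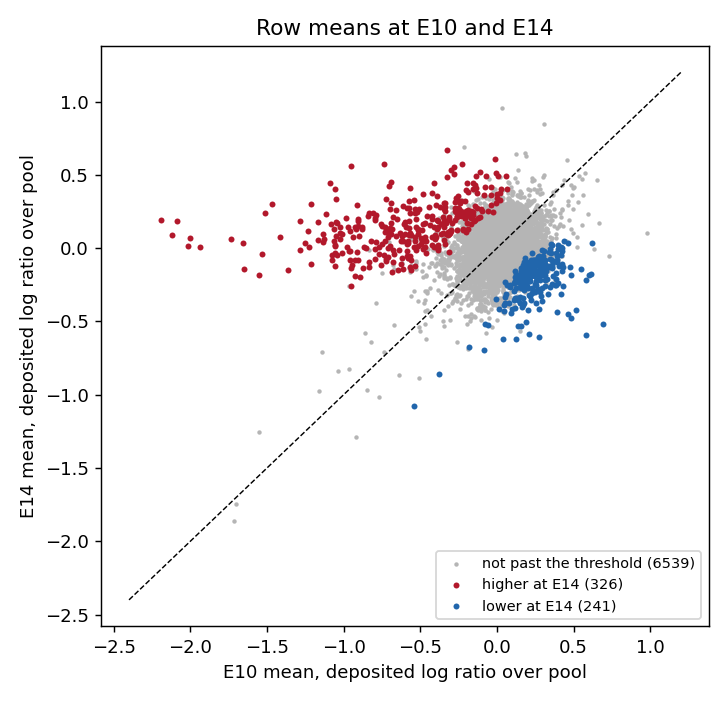
Mean deposited log ratio of each of the 7106 probes at E10 (horizontal axis) and at E14 (vertical axis), each over up to 4 arrays, with the line of equal values dashed. The 326 probes that rose lie mostly left of 0 at E10 and near or above 0 at E14, and the 241 that fell lie mostly right of 0 at E10 and below 0 at E14.

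Probes that rose mostly stood below the pool at E10. Their mean was below the pool in 319 of 326 at E10 and in 59 at E14. Among all 7106 probes tested, the mean was below the pool in 3085 at E10 and in 3633 at E14. The probes that rose were chosen for higher values at E14 than at E10, and the pool contains both ages, so these counts are a description. Averaged over the 326 probes, the E10 arrays stood at -0.56, -0.66, -0.61 and -0.56 and the E14 arrays at -0.11, 0.29, 0.19 and 0.25 (replicates 1 to 4). All E14 arrays were higher than all E10 arrays, and E14 replicate 1 was the lowest of its age. The means were -0.60 ± 0.05 at E10 and 0.15 ± 0.18 at E14 (SD, n = 4).

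Probes that fell went from above the pool to below it, and changed less. The E10 arrays averaged 0.27, 0.22, 0.22 and 0.28 over these 241 probes and the E14 arrays -0.25, -0.14, -0.27 and -0.20. Here replicate 1 lay among the other E14 arrays. The means were 0.25 ± 0.03 at E10 and -0.22 ± 0.06 at E14 (SD, n = 4). Since these probes were chosen by this difference, the separation of the ages in their means is a description.

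The largest increase was that of probe 5037. It measured -2.01, -2.36, -2.26 and -2.14 on the E10 arrays and -1.04, 0.62, 0.76 and 0.43 on the E14 arrays. The ages did not overlap, but E14 replicate 1 was well below the other E14 arrays. Its mean went from -2.19 ± 0.15 to 0.19 ± 0.83 (SD, n = 4). The difference was 2.39, with an SE of 0.27 (limma adjusted p = 3.2e-05). It lay between 2.20 and 2.80 with 1 array left out at a time, the highest being without E14 replicate 1.

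Probe 5909 had the second largest increase. Its E10 values were -1.96, -2.43, -1.72 and -2.24, and its E14 values were -0.31, 0.72, -0.10 and 0.42. All E14 arrays were again above all E10 arrays, with replicate 1 the lowest. The difference was 2.27, with an SE of 0.21 (limma adjusted p = 6.56e-06).

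The largest decrease was that of probe 5819. It stood at 0.70, 0.90, 0.70 and 0.48 at E10 and at -0.19, -0.52, -0.82 and -0.53 at E14, with no overlap between the ages. The difference was -1.21 (SE 0.18, limma adjusted p = 0.000353). Probe 2747 came next, with 0.63, 0.47, 0.56 and 0.66 at E10 against -0.54, -0.73, -0.06 and -1.04 at E14. Its E10 arrays lay close together and its E14 arrays were spread over about 1 unit. The difference was -1.18 (SE 0.22, limma adjusted p = 0.00177).

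**Figure D2:**
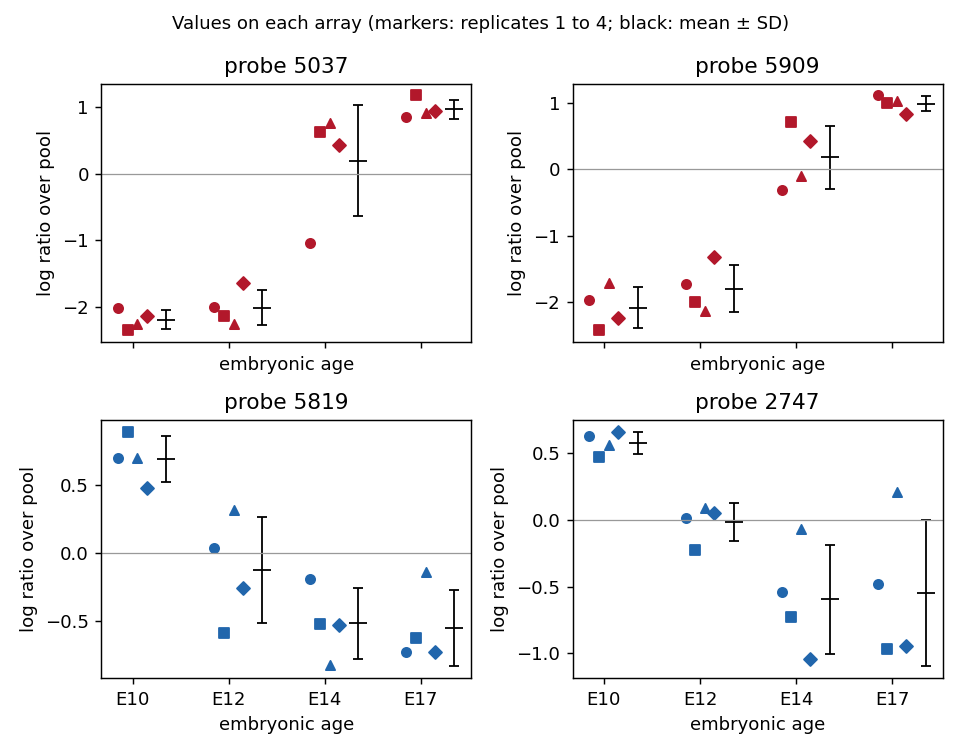
Deposited log ratio over the reference pool (vertical axis) of the 2 probes that rose most and the 2 that fell most, by age, with a marker for each of the 4 replicates and the mean ± SD in black. Probes 5037 and 5909 remained near -2 at E12 and were positive on average at E14, while probes 5819 and 2747 had already left their E10 level at E12.

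The 5 probes that rose by at least 2 had like levels at every age. Their means ran from -2.19 to -2.00 at E10, from -2.02 to -1.57 at E12, from 0.01 to 0.19 at E14 and from 0.77 to 1.10 at E17. On average over the 5, the E14 arrays stood at -0.82, 0.58, 0.37 and 0.30, so that replicate 1 was below the pool and the other three above it. None of the 4 E14 arrays fell within or below the E10 range of any of these probes. The 5 were chosen by their difference between E14 and E10, so this separation is a description. Whether the 5 rows represent different genes is not known.

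Probes that rose were grouped by the size of the difference between E14 and E10, so the levels of the classes are a description. The classes differed more in their mean at E10 than in their mean at E14. For the 83 probes that rose by less than 0.5, the mean over arrays was -0.24 ± 0.03 at E10 and 0.17 ± 0.07 at E14. The 177 probes that rose by 0.5 to 1 went from -0.55 ± 0.05 to 0.15 ± 0.17, the 52 that rose by 1 to 1.5 from -1.04 ± 0.08 to 0.14 ± 0.28, and the 14 that rose by at least 1.5 from -1.69 ± 0.11 to 0.17 ± 0.59 (SD, n = 4). With all arrays, the mean at E14 was thus close to the same in the 4 classes, while its spread between arrays grew with the size of the change. The near-equal means depended on replicate 1. From the smallest to the largest class, replicate 1 went from 0.07 to -0.69. Replicates 2, 3 and 4 went from 0.23, 0.17 and 0.20 to 0.58, 0.50 and 0.28. The reference pool contains the E14 samples, so its level is not independent of theirs.

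Replicate 1 lay further below the other E14 arrays the larger the increase. Its mean was 0.07, -0.10, -0.28 and -0.69 in the 4 classes of rising size, where the other E14 arrays lay between 0.17 and 0.58 throughout. It gave the lowest E14 value in 231 of the 326 probes that rose (70.9%) and in 59 of the 66 that rose by at least 1, against 26.8% of all probes tested. It lay within or below the E10 range for 21 of the 326, against 2 to 4 for each other E14 array. The calls used these same arrays, which keeps such counts low, so they are a description. Among probes that fell, replicate 1 lay within or above the E10 range for 4 of 241, against 0 to 9 for the others. Its distance from the other E14 arrays was thus measured in the increases and not in the decreases. Without it, 359 probes rose and 215 fell, and 315 and 180 of these were the same probes as with all arrays.

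**Figure D3:**
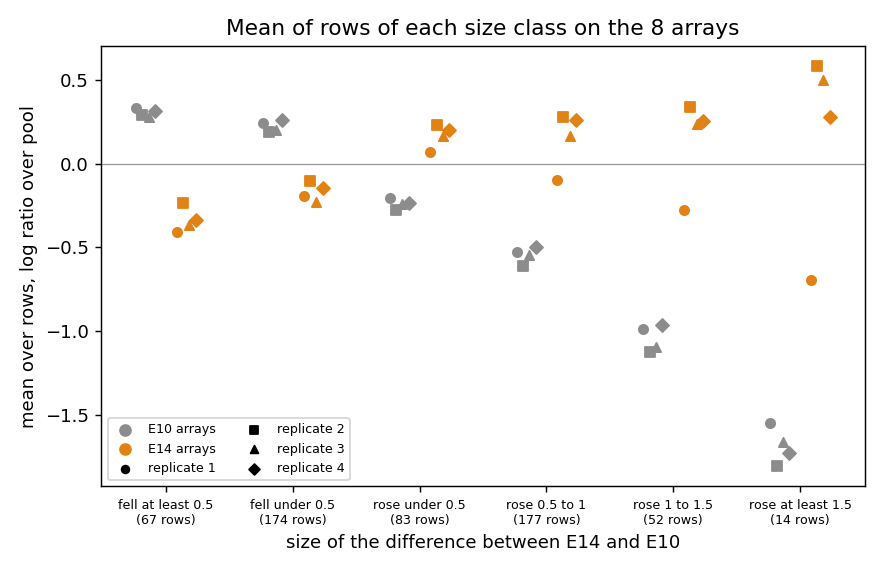
Mean log ratio over the pool on each of the 4 E10 arrays (grey) and 4 E14 arrays (orange) for probes grouped by direction and size of the difference between E14 and E10. E14 replicate 1 (circle) runs from 0.07 in the smallest increases to -0.69 in the largest, while the other E14 arrays are above 0 in every class that rose.

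To read each array on probes it had not helped to choose, the calls were repeated without it. For the probes then called higher, the left-out E10 array averaged -0.73 to -0.58 and the left-out E14 array -0.14 to 0.26. Those called lower averaged 0.20 to 0.27 on a left-out E10 array and -0.19 to -0.07 on a left-out E14 array. Each of the 8 arrays thus lay nearer to its own age, E14 replicate 1 only just so for the increases. For the increases the level of the pool is itself nearer to E14 than to E10, and replicate 1 lay below the pool. Its place on the E14 side is therefore not established by this reading. E14 replicate 1 was the furthest from its own age among the increases, at -0.14 against 0.25 on the other E14 arrays and -0.56 at E10. Among the decreases the furthest was E14 replicate 2, at -0.07 against -0.27 on the other E14 arrays and 0.22 at E10.

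**Figure D4:**
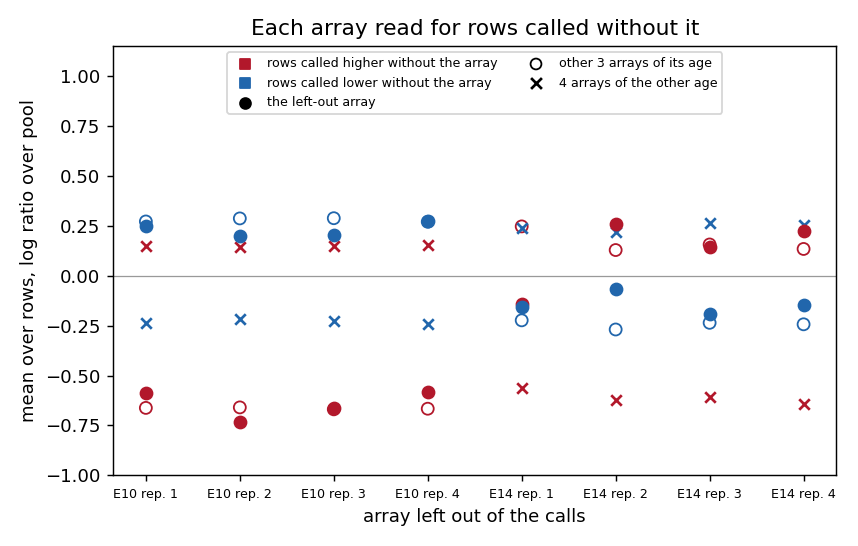
Mean log ratio over the pool of the probes called higher (red) or lower (blue) at E14 when the array on the horizontal axis was left out, shown for that array (filled), the other 3 arrays of its age (open) and the 4 arrays of the other age (cross). Filled points lie nearer to the open points than to the crosses for all 8 arrays, and E14 replicate 1 is close to midway between them for the increases.

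Most changed probes separated the ages completely. The E14 values were all above or all below the E10 values for 299 of the 326 probes that rose and 226 of the 241 that fell. Over all 7106 probes, 6.59% had every E14 value above every E10 value and 7.74% had every one below. The changed probes were called on these same arrays, so their higher share is not a result. The balance of directions depended on the centring of the arrays. With each array's median subtracted, 360 probes were higher and 191 lower by the adjusted test. Of the probes with an unadjusted limma p under 0.05, 620 were higher and 761 lower as deposited, against 709 and 598 with medians subtracted. At the threshold, the last probe inside had a difference of 0.55 (SE 0.17, limma adjusted p = 0.0495) and the first outside -0.34 (SE 0.10, limma adjusted p = 0.0501).

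On the deposited scale the E14 arrays differed more from each other than the E10 arrays. Per probe, the SD between replicate pools had a median of 0.113 at E10 and 0.186 at E14, a ratio of 1.64, and the SD was higher at E14 for 5307 of 7106 probes (74.7%). The excess was found in 267 of the 326 probes that rose (81.9%) and 163 of the 241 that fell (67.6%). Across probes, pairs of E10 arrays correlated at 0.547 to 0.652 and pairs of E14 arrays at -0.006 to 0.339. The number of embryos per pool and the nearness of E14 to the level of the pool both differ between the ages, and their part in the spread was not tested. All arrays had been scaled to a common SD before deposit, and what this scaling does to the spread of each age was not tested either. With a spread taken from the 8 arrays of these ages alone, 268 probes rose and 163 fell.

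The arrays of the 2 ages not compared show when the changed probes moved. Probes that rose averaged -0.28 ± 0.08 at E12 and 0.32 ± 0.05 at E17, beside -0.60 at E10 and 0.15 at E14. Probes that fell averaged 0.01 ± 0.06 at E12 and -0.29 ± 0.04 at E17, beside 0.25 and -0.22 (SD, n = 4). On average both groups were about midway at E12 and beyond their E14 level at E17. For the increases, the E14 mean includes replicate 1 at -0.11. The other E14 arrays stood at 0.19 to 0.29 and the E17 arrays at 0.26 to 0.36. Without replicate 1 the E14 mean and the midpoint are higher, and E12 lies further below midway. The E12 mean lay between the E10 and E14 means for 294 of the 326 probes that rose and 236 of the 241 that fell. Over all 7106 probes this held for 3222, and the called probes were chosen for a wide gap between E10 and E14, so the higher share among them is not a result.

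**Figure D5:**
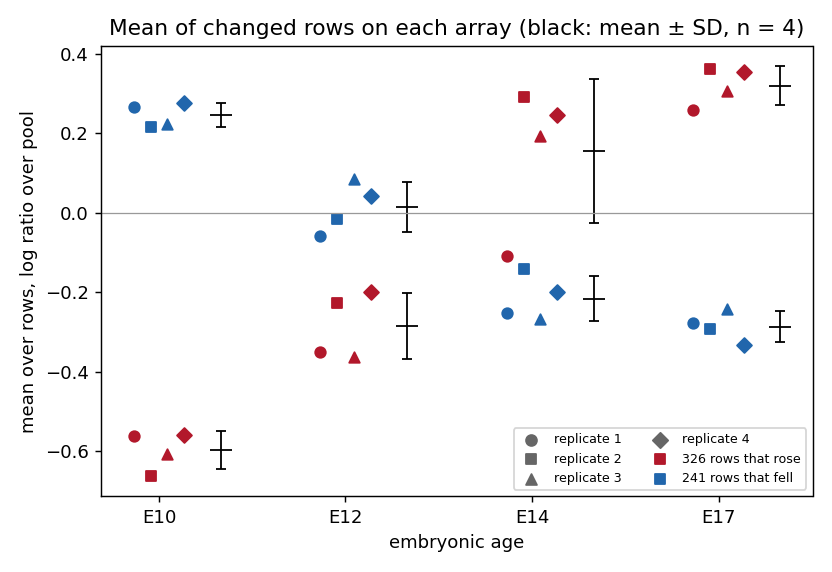
Mean log ratio over the pool of the 326 probes that rose (red) and the 241 that fell (blue) on each of the 16 arrays, by age, with the mean ± SD over 4 arrays in black. The probes were chosen on E10 and E14. On the E12 arrays the increases stand between -0.36 and -0.20 and on the E17 arrays between 0.26 and 0.36.

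Whether E12 differed from the midpoint of E10 and E14 was tested over all probes, which asks if the change was even over the 4 days. With all arrays 0 of 7106 probes passed (limma, adjusted), and 356 had an unadjusted p under 0.05 (5.01%). This count rested on 1 array. Without E14 replicate 1, 30 probes were below the midpoint and 3 above it, and with array weights 10 were below and 0 above. The test does not show that the change was even.

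The E12 level of the probes with the largest increases was mostly below the midpoint, while the medians of the smaller size classes lay near it. At an unadjusted limma p under 0.05, 44 of the 326 probes that rose were below it and 5 above. Among all tested, 188 were below and 168 above. The smaller classes shared this: 11 below and 1 above under 0.5, 14 and 2 from 0.5 to 1, and 11 and 2 from 1 to 1.5. The median distance from the midpoint was -0.03 for the 83 probes that rose by less than 0.5 (34 above and 49 below), 0.01 for the 177 that rose by 0.5 to 1 (91 above and 86 below) and 0.06 for the 52 that rose by 1 to 1.5 (31 above and 21 below). Of the 14 probes that rose by at least 1.5, 12 were below the midpoint, with a median distance of -0.67, and all 5 that rose by at least 2 were below it. The wider class of 66 that rose by at least 1 held 33 above and 33 below. Among all 7106 probes tested, 3668 were above and 3438 below. Probe 5037 was at -2.01, -2.14, -2.27 and -1.65 on the E12 arrays, overlapping its E10 values, and its distance from the midpoint was -1.01 (SE 0.23, limma adjusted p = 0.216). For probe 5909 the distance was -0.85 (SE 0.18, limma adjusted p = 0.197). Neither passed, and differences between the size classes were not tested. The midpoint contains the E14 values by which the probes that rose were chosen. Their median SD between arrays was 0.236 at E14 and 0.119 at E10, so the choice can itself raise the midpoint. The counts of these probes below and above it are therefore a description.

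Among the larger decreases, E12 lay near the midpoint. The 67 probes that fell by at least 0.5 averaged 0.30 at E10, 0.00 at E12 and -0.34 at E14, with 34 above and 33 below the midpoint. Probe 5819 was at 0.04, -0.59, 0.32 and -0.25 on the E12 arrays, below all E10 values but spread widely. Probe 2747 was at 0.02, -0.23, 0.09 and 0.05, also below all of its E10 values.

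By E17 the mean lay beyond its E14 level in most probes that rose and in most that fell. The E14 mean of the increases includes the low replicate 1, so the step sizes of increases and decreases are not compared. The count for the increases rests on replicate 1 too, and no count without it is given. The E17 mean was above the E14 mean for 232 of the 326 probes that rose and below it for 175 of the 241 that fell. Among all 7106 probes tested, it was above the E14 mean for 3486 and below it for 3620. For the 83 probes that rose by less than 0.5, it was above for 45 and below for 38. Over the probes that fell, the E14 arrays averaged -0.27 to -0.14 and the E17 arrays -0.33 to -0.24, which overlap. Of the 66 probes that rose by at least 1, 61 were higher at E17 than at E14, and their mean went from 0.14 ± 0.35 to 0.55 ± 0.07 (SD, n = 4). E14 replicate 1 averaged -0.37 over these 66, and the other E14 arrays 0.26 to 0.39, against 0.46 to 0.63 at E17. Probe 5037 stood at 0.85, 1.18, 0.92 and 0.93 at E17, all above its E14 values. Probe 5819, at -0.72, -0.63, -0.14 and -0.72, overlapped its E14 values. Since E14 values chose the probes, the step from E14 to E17 was not tested on them.

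Against the midpoint of E10 and E14, E17 was higher for 339 of all 7106 probes (4.77%) and lower for 443 (6.23%), or 11% in both directions together (limma adjusted p under 0.05). For probe 5037 the distance was 1.97 (SE 0.23, limma adjusted p = 2.09e-05) and for probe 5909 it was 1.95 (SE 0.18, limma adjusted p = 1.66e-06). Probe 5819 was lower by this test, at -0.64 (SE 0.16, limma adjusted p = 0.0108). Probe 2747 did not pass, at -0.54 (SE 0.19, limma adjusted p = 0.0775), and its E17 replicate 3 was at 0.21 where the others were at -0.97 to -0.48. This comparison shares the E10 and E14 arrays with the one above. A probe that changed between E10 and E14 and then kept its E14 level also differs from this midpoint. Passing therefore does not show a change after E14. Probe 5819 averaged -0.52 at E14 and -0.55 at E17.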

How the data were processed

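Two-colour cDNA arrays of chicken embryonic pituitary were grouped by the age in the labels, 4 replicate pools per age. The authors deposited a log ratio for each spot of each array, taken here as log2 values with the sample divided by the pool. The labels used here do not give the image analysis, background correction, normalization, spot filters or log base. Per array the deposited values had means near 0 and an SD of 0.261. Their medians were 0.017, 0.036, 0.025 and 0.017 on E10 replicates 1 to 4 and 0.017, 0.002, 0.0001 and -0.023 on E14 replicates 1 to 4. Sample over pool is the likely direction: the pool holds equal amounts of all samples, and over 57 probes with a variance between ages above 0.5 the log2 of the mean linear ratio had an SD of 0.10 as deposited and 0.33 with the sign turned. The lowest correlation between 2 of the 16 arrays was -0.37, and the ages can oppose each other around the pool, so the direction was kept.

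Probes with at least 3 values at E10 and at E14 were tested (7106), which left out 94, 40 of them among the first 45 spots. limma 3.58.1 in R 4.3.3 (lmFit, eBayes) fitted a mean per age over all 16 arrays, with Benjamini-Hochberg adjustment over all probes tested, a threshold of 0.05, and missing values left missing. The fit was run on simulated data with independent noise for each probe. No array was shifted as a whole there, so that run does not cover an array that stands apart. Named probes have the 2 largest increases and the 2 largest decreases among calls whose E10 and E14 arrays do not overlap. Size classes, members and alternatives were chosen with earlier results of these data known. None of the 10 gene lists drawn up could be used, as no listed gene is named.

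Replicate numbers were not used to pair the arrays in the reported fit. Deviations of same-numbered E10 and E14 arrays correlated at -0.02, 0.01, 0.14 and 0.04. At E12 too, replicates 3 and 4 lacked most of the first 45 spots (45 and 39). A fit with the replicate number as a block is given below, and whether the number stands for a shared batch was not tested. The number of arrays limits the precision. The labels call the replicates biological.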

Additional observations from a re-analysis of the deposited data

Results flagged for a closer look

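In 60 groups of 4 arrays (the named probes and the means of changed probes, by age), 2 held an array that stood apart by Dixon's criterion, which chance alone meets in about 1 group of 20. Many of these groups share probes and are not independent. E14 replicate 1 averaged -0.28 over the 52 probes that rose by 1 to 1.5, against 0.24 to 0.34 on the other E14 arrays. For probe 5819, E17 replicate 3 read -0.14 and the other E17 arrays read -0.72 to -0.63.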

How the results depend on the processing

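All 12 alternatives to the reported settings and the 8 fits that left out 1 array were set before these fits were run, with earlier results of these data known. The 4 named probes kept their direction and passed the threshold in all of them. Over the 21 fits, the reported one included, 116 probes were higher and 15 lower in every one, and 230 and 107 passed in the reported fit and all 8 fits without 1 array. Tested against a minimum difference of 0.25, 142 probes passed, 126 higher and 16 lower. This stricter test is among the 21 fits, so the counts that hold in every fit cannot exceed these. Without the 4 arrays that lack the first spots, 305 passed, 202 higher and 103 lower, with 2 arrays left at E14; with those arrays as a term, 479 passed. With 1 array omitted at a time the count was 422 to 576, with 257 to 359 higher and 145 to 285 lower; the lower count was 145 without E10 replicate 4, 152 without E10 replicate 1 and 160 without E14 replicate 3. With the replicate number as a block the count was 697, 379 higher and 318 lower; 1 of 4 E14 arrays correlated best with the E10 array of its own number. For E12 against the midpoint the counts without 1 array were 0 to 33 in all, 0 to 3 above and 0 to 30 below, and array weights gave 10 in all, 10 of them below; the replicate block gave 0. For E17 against the midpoint the counts were 510 to 912 in all, 271 to 397 above and 239 to 515 below, the lowest being without E17 replicate 4, while the replicate block gave 952 and array weights 1099 (442 above and 657 below). The cause of these shifts was not tested. The number of arrays, 4 per age, limits what can be detected.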

Other observations

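STUB1 encodes an E3 ubiquitin ligase that binds chaperones, and the 54 probes that carry its name did not give a common value. Their differences between E14 and E10 ran from -0.44 to 0.87 with a median of -0.04. Of these 54 probes, 1 was called higher and 1 lower. Over all 7106 probes tested, 4.59% were called higher and 3.39% lower. Whether all 54 hold cDNA of STUB1 was not checked. With calls in both directions, they are not read as a measure of STUB1.

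Of the 94 probes not tested, 86 had fewer values at E14 than at E10.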
